A study of Mus musculus with 9 samples.

Results

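Actin and contractile genes were followed in primary mouse embryonic fibroblasts (MEFs) that contained low or high levels of the transcription factor MYC. They comprised 10 genes chosen by name, namely the cytoplasmic actins Actb and Actg1, the muscle actins Acta1, Acta2 and Actg2, the actin-binding proteins Tagln, Cnn1 and Tpm1, and the non-muscle and smooth muscle myosin subunits Myh9 and Myl9. All 10 were found among the 19769 genes of the RNA-seq table and all passed the filter on low values, which left 11870 genes. The RNA came from MEFs of Myc-Egfp+/+ mice, in which MYC carries a green fluorescent tag. Both groups had received the proteasome inhibitor MG-132 (20 µM, 6 h) before they were sorted by GFP into low-MYC and high-MYC cells and plated overnight, and no group without MG-132 was analysed here. Each group consisted of 2 technical replicates, so the spread between libraries that the tests use is technical. FUBP1 binding was mapped by ChIP-seq in 1 sample of primary MEFs at steady state, cross-linked for 8 min, and TACh-seq, which maps chromatin accessible to a nuclease, was carried out in WT MEFs and in KOKD MEFs (Fubp1 knockout with Fubp2 siRNA).

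Actin monomers assemble into filaments, and myosin pulls on these filaments to give tension. Fibroblasts build their filaments mostly from the cytoplasmic β and γ actins, and when they take on a contractile, myofibroblast state they also make α-smooth muscle actin (Acta2) and proteins shared with smooth muscle, such as transgelin and calponin. Many of these genes are controlled by serum response factor (SRF), which binds the CArG box, a CC and a GG separated by 6 bases that are each A or T. FUBP1 is a single-stranded DNA-binding protein known for its action at the Myc gene.

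The promoters are shown because they hold, or lack, the CArG boxes that SRF binds. RefSeq promoters (GRCm38.p6) were found for 7 of the 10 genes, and Actb, Actg2 and Tagln had no entry. The 250 bases before the RefSeq start were searched. Bases are given 5′ to 3′ on the strand of the gene, with each CArG box, and each CArG box in which 1 of the 6 inner bases is G or C, in capitals. The RefSeq start is not always that of GENCODE, from which all other gene positions here are taken. Along the gene it lies 24 bases before the GENCODE start in Acta1, at the same base in Myh9, and 44, 47 and 217 bases past it in Myl9, Actg1 and Acta2. Bases inside a GENCODE exon of the gene were not printed, except in Acta2. Both boxes of Acta2 lie in the part that GENCODE counts as exon, and they alone are given, with 10 bases on each side. The bases printed are those of chr8:123894776-123895025 (Acta1), chr19:34255438-34255467 and chr19:34255388-34255417 (Acta2), chr11:120348543-120348745 (Actg1) and chr15:77842176-77842425 (Myh9) on the minus strand, and of chr2:156775214-156775419 (Myl9) on the plus strand. The genes whose promoters are not printed lie at chr5:142903115-142906754 (Actb), chr6:83512905-83536265 (Actg2), chr9:45929619-45936058 (Tagln) and chr9:67022590-67049406 (Tpm1) on the minus strand and at chr9:22099216-22109630 (Cnn1) on the plus strand.
Acta1: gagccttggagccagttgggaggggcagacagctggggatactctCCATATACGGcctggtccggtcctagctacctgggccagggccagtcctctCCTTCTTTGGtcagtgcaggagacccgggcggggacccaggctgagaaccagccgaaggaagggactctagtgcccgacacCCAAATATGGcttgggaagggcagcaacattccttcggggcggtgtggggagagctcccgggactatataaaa
Acta2, first box: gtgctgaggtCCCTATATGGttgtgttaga
Acta2, second box: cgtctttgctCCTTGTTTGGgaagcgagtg
Actg1: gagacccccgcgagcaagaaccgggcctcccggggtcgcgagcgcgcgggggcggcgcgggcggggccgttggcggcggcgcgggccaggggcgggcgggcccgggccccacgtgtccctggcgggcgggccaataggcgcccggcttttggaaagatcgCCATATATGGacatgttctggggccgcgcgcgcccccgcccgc
Myl9: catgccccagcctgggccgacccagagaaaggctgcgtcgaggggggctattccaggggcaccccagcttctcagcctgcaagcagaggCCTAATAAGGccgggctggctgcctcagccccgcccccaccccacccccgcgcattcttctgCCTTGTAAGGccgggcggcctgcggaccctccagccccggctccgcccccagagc
Myh9: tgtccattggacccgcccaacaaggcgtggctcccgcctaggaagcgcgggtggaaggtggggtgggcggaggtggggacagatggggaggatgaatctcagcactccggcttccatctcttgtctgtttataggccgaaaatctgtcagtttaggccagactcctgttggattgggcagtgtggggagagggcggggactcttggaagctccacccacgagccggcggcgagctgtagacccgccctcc
Acta1, Actg1 and Myl9 each held 1 CArG box, which began 73, 90 and 161 bases before the RefSeq start. Both strands were searched, and 1.47% of 32851 promoters of the same length held this box. Acta1 and Acta2 each held 2 boxes with 1 inner G or C, and Myl9 held 1, a form found in 7.24% of all promoters. No box of either form lay in these 250 bases of Myh9, Cnn1 or Tpm1. A match is a run of letters and says nothing about binding.

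The deposited RNA values are FPK (fragments per kilobase of transcript) divided by a score of ERCC transcripts, which had been added in proportion to cell number. A value is therefore relative to the number of cells, and values of different genes can be compared because they are per length. The values of the 4 libraries summed to 46321 and 48291 in low-MYC cells and to 102853 and 109090 in high-MYC cells. Among 5204 genes with a single annotated transcript, low values fell on steps that give what 1 read is worth. In each library 36.3 to 37.5% of those worth up to 20 reads lay within 0.05 of a whole read, where evenly spread values would give 10%. Relative to the low-MYC mean, 1 read was worth 2.24 and 2.54 in the 2 high-MYC libraries, and these 5204 genes held 3549623 to 3993165 reads in every library. The estimated numbers of reads on these genes were thus close, and the difference between the sums came in with the spike-in score. A number of reads alone does not measure RNA per cell. By this estimate the members rested on about 498 reads (Actg2 in high-MYC replicate 2) to about 396030 reads (Actg1 in high-MYC replicate 1). These numbers of reads are approximate, since the length of the principal transcript was used. In these bulk samples a change in the share of contractile cells and a change in RNA per cell cannot be told apart.

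The cytoplasmic actins were the highest members and among the highest of all genes. Actg1, γ-actin, had a normalized FPK of 833 and 874 in the low-MYC replicates and 1985 and 2090 in the high-MYC replicates, which ranked it the 4th and the 3rd of all genes in the groups. Actb, β-actin, had 684 and 701 in the low-MYC libraries and 1525 and 1636 in the high-MYC libraries, ranking the 6th and the 5th. The groups did not overlap for either gene, on a scale on which 97.1% of the genes tested were called higher in high-MYC cells. The log2 fold change of the level was 1.26 for Actg1 (SE 0.062, limma adjusted p = 1.35e-05) and 1.19 for Actb (SE 0.062, limma adjusted p = 1.51e-05). Part of these values is uncertain, because the Actg1 transcript shared 56.7% of its 50-base words with transcripts of 22 other genes, including the pseudogenes Gm12715, Gm8399 and Actg-ps1, and Actb shared 14.2% of its words.

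The muscle actins differed widely in level. Acta2, α-smooth muscle actin and the usual marker of myofibroblasts, had a normalized FPK of 129 and 131 in the low-MYC and 245 and 256 in the high-MYC libraries. It ranked 56 of all genes in the low-MYC and 62 in the high-MYC group. Acta1, the actin of skeletal muscle, had 7.83 and 8.15 in the low-MYC and 10.8 and 10.9 in the high-MYC libraries. Actg2, γ-smooth muscle actin, was the lowest member, with 2.40 and 2.45 in the low-MYC and 3.79 and 4.14 in the high-MYC libraries. All 3 were higher in both high-MYC libraries than in both low-MYC libraries, on the scale on which 97.1% of the genes tested were called higher. Their rises were smaller in value than those of the cytoplasmic actins, with log2 fold changes of the level of 0.94 for Acta2 (SE 0.049, limma adjusted p = 1.48e-05), 0.69 for Actg2 (SE 0.056) and 0.44 for Acta1 (SE 0.043, limma adjusted p = 0.000143). The muscle actin transcripts shared few 50-base words with other genes, 2.22% for Acta1, 0.352% for Acta2 and 0% for Actg2.

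Among the actin-binding proteins, transgelin had the highest level and calponin 1 the lowest. Tagln, which encodes transgelin, a calponin-related protein of smooth muscle, had a normalized FPK of 223 and 224 in the low-MYC and 434 and 438 in the high-MYC libraries. Tpm1, a tropomyosin that lies along the filament, had 37.7 and 37.4 in the low-MYC and 82.7 and 89.0 in the high-MYC libraries. Cnn1, calponin 1, which binds actin and slows myosin, had 6.30 and 6.23 in the low-MYC and 13.4 and 13.7 in the high-MYC libraries. Each of these genes was higher in every high-MYC library, where 97.1% of the genes tested were called higher. The log2 fold change of the level was 0.96 for Tagln (SE 0.046), 1.19 for Tpm1 (SE 0.052) and 1.10 for Cnn1 (SE 0.040).

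The myosin subunits rose by nearly the same factor. Myl9, a regulatory light chain of myosin II, had a normalized FPK of 35.0 and 34.2 in the low-MYC and 76.7 and 77.8 in the high-MYC libraries. Myh9, the heavy chain of non-muscle myosin IIA, had 15.2 in both low-MYC replicates and 33.9 and 34.0 in the high-MYC replicates. The log2 fold change of the level was 1.16 for Myl9 (SE 0.042) and 1.15 for Myh9 (SE 0.039).

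**Figure D1:**
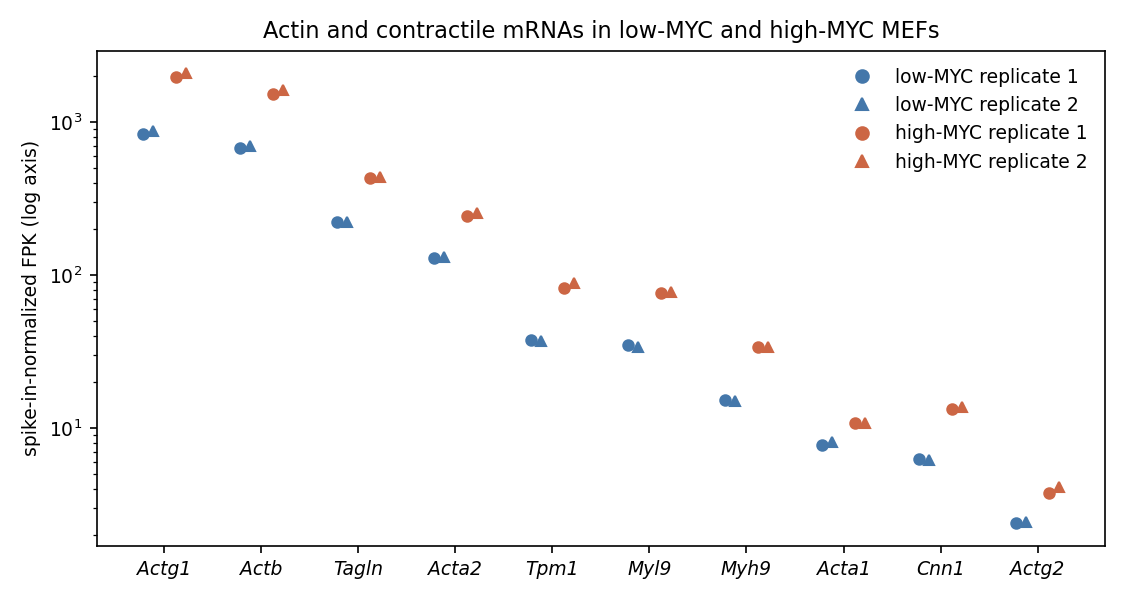
Spike-in-normalized FPK (log axis) of the 10 genes in the 2 low-MYC and 2 high-MYC libraries, ordered by their mean in low-MYC cells, with 1 symbol per library. Every high-MYC value lies above both low-MYC values of the same gene, on a scale on which 97.1% of the genes tested were called higher. Acta1 and Cnn1 change places between the groups.

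All 10 genes were higher in high-MYC cells at any fold with a limma adjusted p under 0.01, as were 97.1% of the genes tested. A rise of at least 2-fold was found for 6 of the 10, namely Actb, Actg1, Cnn1, Myh9, Myl9 and Tpm1, against 55.1% of the genes tested. No member was at least 2-fold lower (0 by limma, 0 at an unadjusted p under 0.05), against 0% of the genes tested. The median log2 fold change of the level was 1.13 over the members and 1.03 over all genes tested, and Acta1 lay under 0.59, the value that 5% of all genes did not reach. The shift was shared by most genes, and rescaling each library to the same total moved the median of all genes to 0.01. In low-MYC cells the order of levels was Actg1, Actb, Tagln, Acta2, Tpm1, Myl9, Myh9, Acta1, Cnn1 and Actg2. In high-MYC cells the same order held but for Cnn1, which then stood above Acta1. No 2 neighbours in either order overlapped between replicates.

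Set against the total of each library, the 10 genes taken as a sum held nearly the same part of the mRNA in both groups. The 10 genes together made up 4.26% and 4.21% of the low-MYC totals and 4.29% and 4.26% of the high-MYC totals. Most of this was Actb and Actg1, at 3.275% and 3.26% of the low-MYC and 3.413% and 3.416% of the high-MYC totals. The part left to the other members was smaller in both high-MYC libraries. Among the 10 genes Acta1 and Actg2 took a smaller share in high-MYC cells. Acta1 made up 0.0169% of the total in both low-MYC replicates and 0.0105% and 0.010% in the high-MYC ones, which gave the share a log2 fold change of -0.71 (SE 0.036, limma adjusted p = 0.00402). Actg2 made up 0.00519% and 0.00507% in the low-MYC and 0.00369% and 0.00380% in the high-MYC libraries, a log2 fold change of -0.44 (SE 0.032, limma adjusted p = 0.00778). Both differences exceeded the spread between replicates, and only 0.27% of the genes tested had a more negative change of share than Acta1 and 1.06% a more negative one than Actg2. These 2 calls were lost when any 1 library was left out, with limma adjusted p-values of 0.0233 to 0.0403 for Acta1 and 0.0436 to 0.0622 for Actg2, and the log2 fold changes then ranged from -0.75 to -0.68 and from -0.46 to -0.42.

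Acta2 made up 0.279% and 0.272% of the total in the low-MYC and 0.238% and 0.234% in the high-MYC libraries. The groups did not overlap, but its log2 fold change of -0.22 (SE 0.030, limma adjusted p = 0.0254) missed the threshold of 0.01. Tagln made up 0.482% and 0.464% in the low-MYC and 0.422% and 0.401% in the high-MYC libraries, with a log2 fold change of -0.20 (SE 0.041, limma adjusted p = 0.0563). Actg1 lay on the other side, with 1.80% and 1.81% in the low-MYC and 1.93% and 1.92% in the high-MYC libraries, a log2 fold change of 0.09 (SE 0.028, limma adjusted p = 0.113). The 5 remaining genes, Actb, Tpm1, Myl9, Myh9 and Cnn1, had log2 fold changes of the share between -0.05 and 0.03, and the largest standard error among them was 0.048. In all, the share of 2 of the 10 genes was lower, against 0.514% of the genes tested, and that of 0 was higher, against 1.77%. At an unadjusted p under 0.05 the same limma test gave 4 members lower and 1 higher, against 12.9% and 18.7% of the genes tested. Of the 3 genes with a CArG box in the promoters printed above, Acta1 was lower in share and Actg1 and Myl9 were not called.

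**Figure D2:**
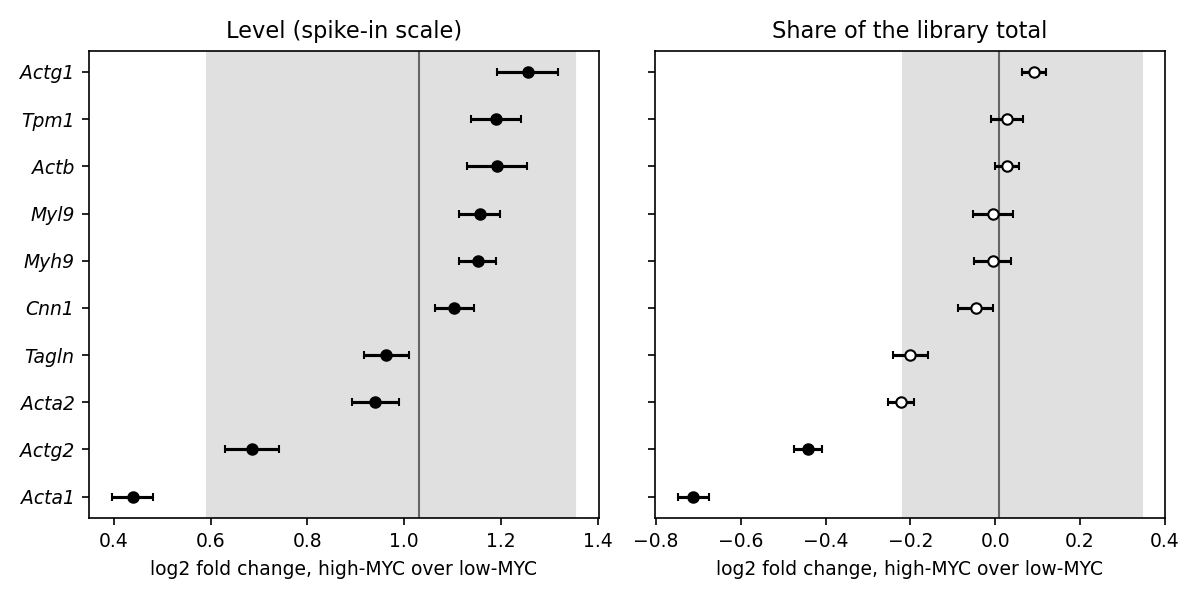
Log2 fold change, high-MYC over low-MYC, of the level (left) and of the share of the library total (right), with the standard error from limma as bars and an adjusted p under 0.01 as filled points. Grey bands span the central 90% of all genes tested and the line is their median; Acta1 lies outside the band on both scales, at 0.44 and -0.71.

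The isoforms were also compared with each other within a library, which needs no scaling. Of the summed FPK of the 5 actins, Acta2 made up 7.80% and 7.66% in the low-MYC and 6.49% and 6.40% in the high-MYC libraries. Acta1 made up 0.473% and 0.475% in the low-MYC and 0.287% and 0.273% in the high-MYC libraries, and Actg2 0.145% and 0.143% against 0.101% and 0.104%. The muscle actins together thus accounted for 8.35% ± 0.10 (SD, n = 2) of actin in the low-MYC and 6.83% ± 0.075 in the high-MYC libraries. Actg1 stood at 50.6% ± 0.42 and 52.5% ± 0.25, which did not overlap, and Actb stood at 41.0% ± 0.33 and 40.7% ± 0.33, which overlapped. With 2 libraries against 2, the exact two-sided permutation test cannot give less than p = 0.333, the value found for all of these but Actb (p = 0.667). The ratio of Tagln to Acta2 overlapped between the groups, with 1.73 and 1.70 FPK of Tagln for each of Acta2 in the low-MYC and 1.77 and 1.71 in the high-MYC libraries. The ratio of Tagln to Actb did not overlap, at 0.326 and 0.320 in the low-MYC and 0.284 and 0.268 in the high-MYC libraries. Neither did those of Myl9 to Acta2, at 0.271 and 0.260 against 0.313 and 0.304, and of Cnn1 to Acta2, at 0.0488 and 0.0474 against 0.0549 and 0.0537. Acta1 stood at 0.0606 and 0.0620 of Acta2 in the low-MYC and at 0.0442 and 0.0427 in the high-MYC libraries. The ratios of Tpm1 and Myh9 to Actb also overlapped, at 0.0543 ± 0.0013 and 0.0220 ± 0.00042 of Actb in the low-MYC and 0.0543 ± 0.00014 and 0.0215 ± 0.0010 in the high-MYC libraries (SD, n = 2).

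**Figure D3:**
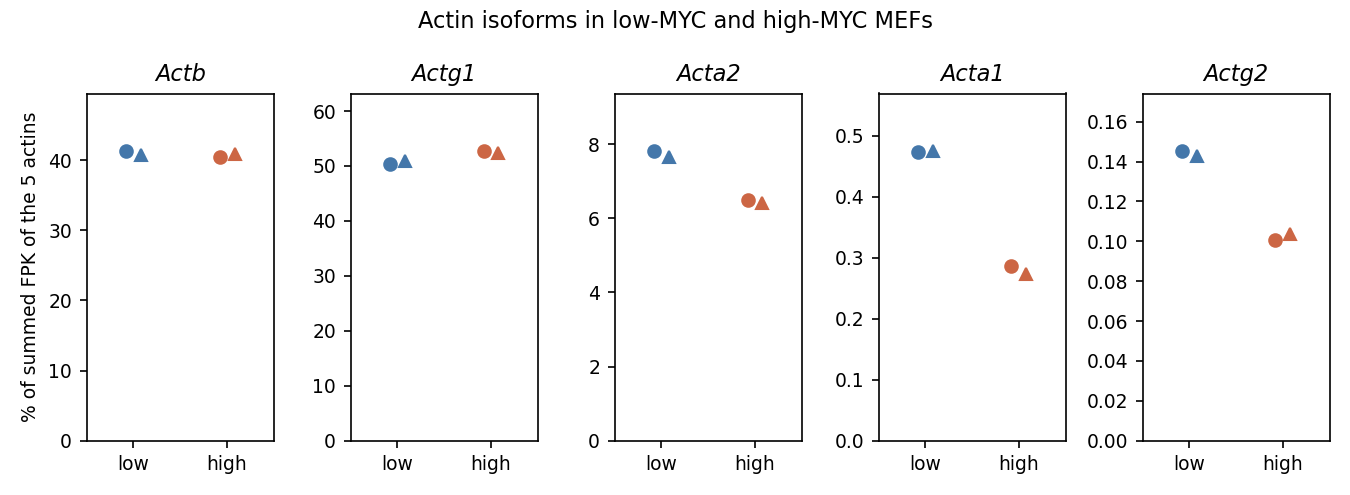
Percent of the summed normalized FPK of the 5 actins that each isoform makes up, in the 2 low-MYC and 2 high-MYC libraries (circles replicate 1, triangles replicate 2), each panel with its own axis from 0. The 3 muscle actins are lower in both high-MYC libraries, and Actg1 is higher.

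The genes whose profile over the 4 libraries was most like that of Acta2, by the distance between centred log2 values, were Tbk1 (0.0062), Farp1 (0.0089), Vta1 (0.011), Nsrp1 (0.012) and Ttc33 (0.012). All 5 had a normalized FPK under 1, where the pseudocount of 0.1 compresses changes. Likeness over 4 libraries in 2 groups rests on little more than the size of the rise after the pseudocount. Without it, the ratio of the high-MYC to the low-MYC mean was 1.92 for Acta2 and 2.15 to 2.26 for these 5 genes.

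Other genes of the contractile machinery were taken from lists of 51 genes, of which 49 were in the table and 46 could be tested. Of these, 32 rose and 0 fell by at least 2-fold in high-MYC cells, against 55.1% and 0% of all genes tested, with a median log2 fold change of the level of 1.11, against 1.03 over all genes. None of the 46 differed in share (0 by limma at an adjusted p under 0.01), while 4 were higher and 10 lower at an unadjusted p under 0.05, against 18.7% and 12.9% of all genes tested, and the median log2 fold change of the share was -0.02. Among the myosin heavy chains, Myh10, the heavy chain of non-muscle myosin IIB, had a log2 fold change of the share of 0.18 and Myh11, the smooth muscle heavy chain, one of -0.38. Myh11 was low, at a normalized FPK of 0.156 and 0.145 in the low-MYC and 0.214 and 0.238 in the high-MYC libraries, and Myh14 was too low to be tested. The light chains and their regulators ran from -0.20 for Myl12a, a light chain, and -0.19 for Ppp1r12a, the targeting subunit of myosin phosphatase, to 0.01 for the kinase Rock2 and 0.05 for Myl12b. The other tropomyosins lay close to 0, with -0.06 for Tpm3, 0.00047 for Tpm4 and 0.02 for Tpm2. Of the calponin family and smooth muscle proteins, Lmod1, a filament nucleator of smooth muscle, stood at -0.24 and the intermediate filament protein Des at -0.15, Cald1 at 0.01 and Smtn at 0.06.

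Among crosslinkers and focal adhesion proteins, the adaptor Pxn had a log2 fold change of the share of 0.17 and Vcl, vinculin, one of 0.15. Actn4, an α-actinin, stood at -0.06. Of the proteins that govern filament turnover, the severing protein Gsn stood at 0.18 and the monomer-binding Tmsb4x at 0.09, against -0.22 for Tmsb10 and -0.08 for Pfn1. The SRF group showed the lowest values at its target Ccn2 (-0.37, limma adjusted p = 0.0118) and at Ccn1 (-0.22, limma adjusted p = 0.0253). Srf itself (0.04) and its cofactor Mrtfb (0.02) lay close to 0, and the smooth muscle cofactor Myocd had a normalized FPK of at most 0.0104. Ccn2 was abundant, at 454 and 480 in the low-MYC and 771 and 850 in the high-MYC libraries. With the threshold at 0.05 in place of 0.01, 2 of the 46 were higher and 5 lower in share. The rate over all genes at that threshold was not computed, so these counts cannot be read as many or few.

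**Figure D4:**
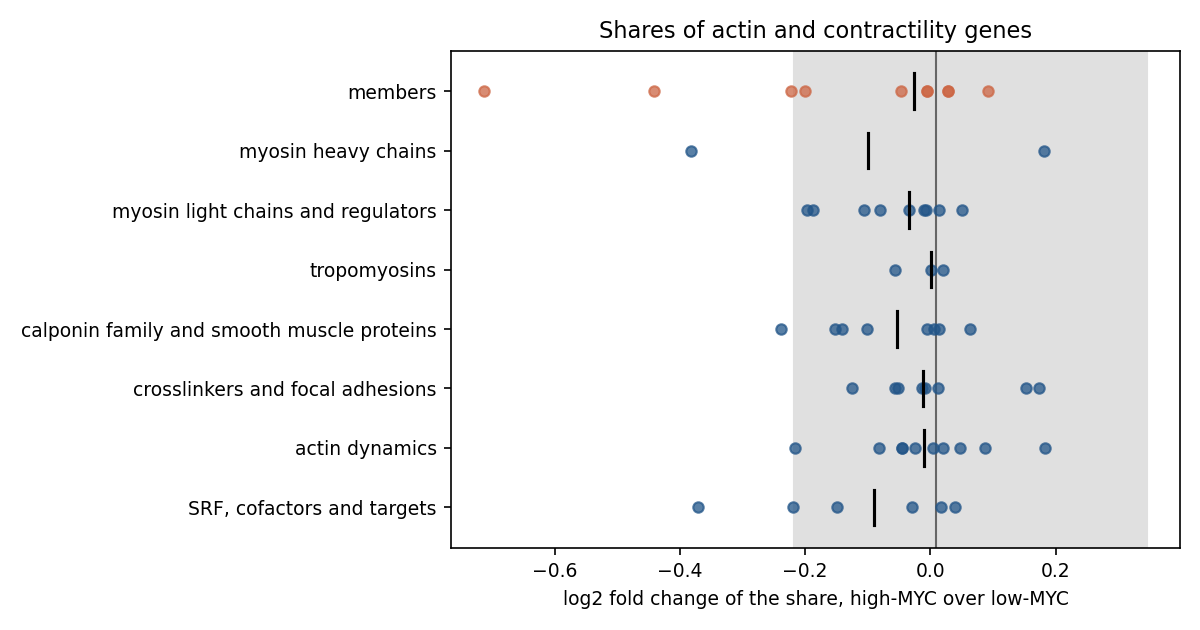
Log2 fold change of the share of the library total, high-MYC over low-MYC, for the 10 members and the tested genes of 7 lists, with 1 point per gene and a bar at each median. The grey band spans the central 90% of all genes tested; most listed genes lie inside it, and Acta1, Actg2, Acta2, Myh11, Ccn2, Lmod1 and Ccn1 lie below it.

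Markers were used to check the cells. The level of all 9 fibroblast markers rose at least 2-fold in high-MYC cells, as did that of 55.1% of the genes tested. Vim, among the 9, had 156 and 160 in the low-MYC and 339 and 352 in the high-MYC libraries. In share, 3 of the 9 (Lum, Dcn and Pdgfra) were higher, against 1.77% of the genes tested, with log2 fold changes of 1.35, 0.91 and 0.37. The 5 smooth muscle markers on the list summed to 4.27 and 3.97 in the low-MYC and to 8.35 and 8.42 in the high-MYC libraries, below Acta1 and above Actg2. As a part of the total, these sums were 0.0092% and 0.0082% in the low-MYC and 0.0081% and 0.0077% in the high-MYC libraries. The highest smooth muscle markers were Des, Lmod1 and Smtn, while Myh11 did not exceed 0.238 and Myocd 0.0104. Of the 5 skeletal muscle markers on the list only Tnnt3 had RNA values, and it did not exceed a normalized FPK of 0.00579 in any library. Of the 4 cardiac markers 2 had RNA values, Tnnt2 and Nkx2-5, and these did not exceed 0.0667. The endothelial markers Pecam1 and Cdh5 and the pericyte marker Rgs5 did not exceed 0.00927. The other endothelial marker on the list, Kdr, had 0.161 and 0.162 in the low-MYC and 0.251 and 0.293 in the high-MYC libraries. The other pericyte marker, Cspg4, had 2.89 and 2.87 in the low-MYC and 5.22 and 5.13 in the high-MYC libraries, above Actg2. The series calls these cells fibroblasts, and the few listed markers of skeletal and cardiac muscle that had RNA values were near 0. Markers of macrophages moved with the groups. The 19 on the list summed to 0.955 and 1.31 in the low-MYC and to 31.0 and 32.4 in the high-MYC libraries. These sums were 0.0021 to 0.0027% of the total against about 0.030%. Of the 19, 13 could be tested, but most of these passed the filter on low values only through the high-MYC libraries. A count of calls among them would thus be fixed in part by the filter and is not given. Cd68 and Cd14, with low-MYC means of 0.605 and 0.376, passed in both groups. Their log2 fold changes of the share were 1.64 and 1.05. In low-MYC replicate 1, 3 of the 19 were at 0. The part of macrophage RNA in the difference of the muscle actins was not tested.

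Myh9 is the member on chromosome 15, where all 166 FUBP1 peaks of the deposited list lie. The paper counts far more peaks in all and describes broad binding at many other genes. The list is therefore silent on the members that lie on other chromosomes. The gene lies on the minus strand at chr15:77760587-77842175 (mm10) and is 81589 bp long, with 41 exons in its principal transcript. Of the peaks, 5 overlapped the gene, and each of them lay at least 50% within it. A 6th peak lay past its 3′ end, with 186 bp between, and was counted when 5000 bp were added on each side. The widest peak of the whole list (chr15:77822401-77843800, 21400 bp) covered the start, with the promoter printed above, exon 1 and most of the 5′ part of intron 1, and reached 1625 bp upstream. The second widest (chr15:77796201-77815800, 19600 bp) overlapped exons 2 to 4. Between them a peak of 5000 bp (chr15:77816601-77821600) lay in intron 1, separated from each by 800 bp. A peak of 7200 bp (chr15:77785801-77793000) overlapped exons 6 to 13 and one of 6200 bp (chr15:77762801-77769000) exons 31 to 40. The median width of all peaks was 4200 bp.

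The peaks covered 57775 bases, or 70.8% of Myh9, including 94.4% of intron 1, which is 28725 bp long. The exons of the principal transcript were covered to 44.8%. By bases covered Myh9 ranked the 1st of 785 coding genes on the chromosome, followed by Asap1 (42200 bases, 10 peaks), Pcbp2 (20061 bases) and Lima1 (17931 bases). Of the 72 coding genes with a peak the median was 4196 bases and 11.5% of the gene, and by the percent covered Myh9 ranked the 10th. Among the 28 with a peak that were at least 50000 bp long, Myh9 was again the 1st, the next being covered to 18.5%. The covered part of Myh9 had a GC content of 51.4% and the rest 53.8%. The snRNA gene Gm22107 lies inside Myh9 and under the same widest peak. The only other listed gene of the contractile machinery on this chromosome was Mrtfa, a cofactor of SRF. It had 1 peak over 4200 bases or 2.35% of its length. Myh9 was itself the 12th highest of 599 coding genes of the chromosome in the RNA-seq table. The ChIP has no replicate, the list gives positions without heights, and no low-MYC or high-MYC ChIP was analysed here, so binding cannot be set against the RNA of the sorted groups.

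The TACh table held 4881417 reads, and the labels of all 4 TACh samples name this same table. No column names a library, so which of the samples it holds is not given, WT and KOKD MEFs were not compared, and the values describe the table. Within 1000 bp of the start Myh9 had 626 reads, more than 99.5% of 10248 expressed coding genes, whose median was 140. Actb had 304 reads, Tpm1 250, Acta2 248, Tagln 208, Actg1 161 and Myl9 150. Acta1, Actg2 and Cnn1, the 3 lowest members in RNA, had 0 reads, as had 15.1% of the expressed coding genes; the table lists reads of limited regions, so 0 sets no upper limit. Over the whole of Myh9 there were 2678 reads, of which 86.9% lay in the FUBP1 peaks that cover 70.8% of it. These reads lay mostly under the peaks nearer the start. The bins under the peak of 6200 bp held 0 reads. Under the peak of 7200 bp, those from 51000 bp past the start onwards held 0. The table lists reads of limited regions, so the percent cannot show whether peaks and accessible chromatin coincide along the gene. The highest bins of 500 bp were the one just before the start, with 434 reads, and one 43000 bp into the gene, under the second widest peak, with 230 reads.

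**Figure D5:**
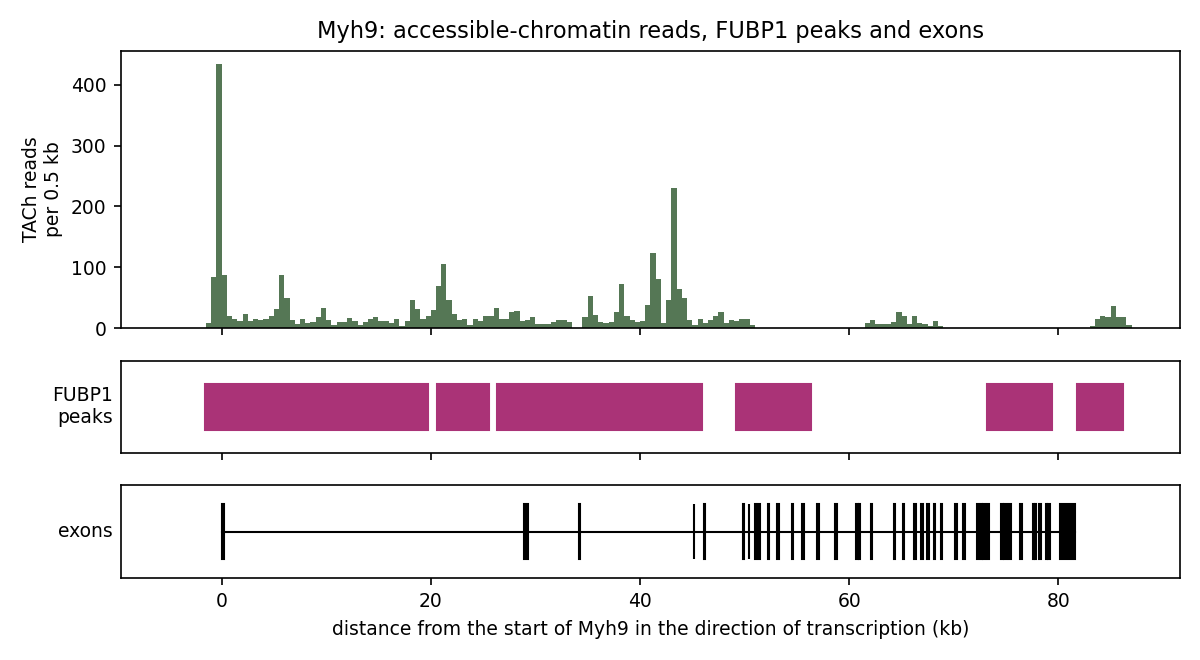
TACh-seq reads per 0.5 kb (top), FUBP1 peaks (middle) and exons of the principal transcript (bottom) along Myh9, by distance in kb from its start in the direction of transcription. The widest peak spans the start and the second widest runs from 26375 to 45974 bp past it. TACh reads reach 434 per bin just before the start and 230 at about 43 kb.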

How the data were processed

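The files hold 4 RNA-seq libraries (2 technical replicates each of low-MYC and of high-MYC cells), 1 FUBP1 ChIP-seq sample and 1 TACh-seq table, named by the labels of 4 samples and without a library column. RNA reads were trimmed at the 3′ end (quality under 20), mapped by TopHat to mm10 transcripts, quantified by Partek E/M and divided by length and by the spike-in score of the library by the authors; the deposited values are this signal per gene. Reads shared by actins and their pseudogenes are split by this step. For ChIP-seq the authors used Bowtie2 and SICER (200 bp windows) against input, and some cross-reaction of the antibody with FUBP2 is noted in the study. The TACh table holds read positions and, per the file's values, a mapping score for each read. Versions of these tools are not given in the sources used here.

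Levels (log2 of normalized FPK + 0.1) and shares (the same after each library was rescaled to the same total) were compared with limma 3.58.1 in R 4.3.3 (lmFit, eBayes with trend) over 11870 genes with a mean of at least 0.1, with Benjamini-Hochberg adjustment over all of them and a threshold of 0.01. The scripts were tested on simulated data. Fold changes on this scale understate low genes. The members and lists were chosen with earlier results of these data known. Named were all members, listed genes that passed the threshold in share or else the 2 largest and 2 smallest changes of each list, the 5 genes most like Acta2, and listed genes of chromosome 15 among the peaks; marker genes, neighbours of Myh9 by peak coverage and pseudogenes that share sequence were named after their values were seen. Gene positions are 1-based (GENCODE M21). The listed actins Actc1 and Actbl2 were not analysed here. One listed gene that this rule names is not reported here. Alternatives covered the pseudocount, filter, trend, replicate block, scaling, threshold, each library left out, and the overlap with peaks. The other steps ran in Python 3.11.15 with pandas 2.3.3, and figures were drawn with matplotlib 3.10.9.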

Additional observations from a re-analysis of the deposited data

How the results depend on the processing

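The 6 members that were at least 2-fold higher came to 6 under every pseudocount, filter, trend, threshold and replicate block tried and without each library in turn, and to 0 with a common median or a common total for the libraries. The 32 listed genes at least 2-fold higher also came to 0 under both rescalings, to 38 with a pseudocount of 0.01, to 22 with one of 1, and to 31 to 33 without each library. Rescaling removes a shift shared by most genes by construction. The sign of 7 members then turned, to log2 fold changes with the same median and the same total of -0.73 and -0.71 for Acta1, -0.24 and -0.22 for Acta2, -0.46 and -0.44 for Actg2, -0.22 and -0.20 for Tagln, -0.061 and -0.046 for Cnn1, -0.020 and -0.0048 for Myl9, and -0.021 and -0.0060 for Myh9. Values near 0 are no sign of a decrease.

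The number of members lower in share, 2, came to 0 without the filter on low values, with the replicate block, and without each library in turn (0 to 0). The call thus rests on all 4 libraries, as do those of other genes: 210 higher and 61 lower in share over all genes came to 39 and 3 without low-MYC replicate 1, 26 and 3 without low-MYC replicate 2, and 0 and 0 without either high-MYC library (limma; the lone library of a group is assumed to vary like the others). Without each library the share of Acta1 ranged from -0.75 to -0.68 and that of Actg2 from -0.46 to -0.42 on the log2 scale, while those of Myl9 (-0.052 to 0.042), Myh9 (-0.046 to 0.034) and Tpm1 (-0.0087 to 0.066) crossed 0. At an adjusted p under 0.05, 2 listed genes were higher and 5 lower in share, in place of 0 and 0, with no rate over all genes computed at that threshold. Of protein-coding genes on nuclear chromosomes alone, the members made up 5.94% of low-MYC and 5.96% of high-MYC totals, in place of 4.24% and 4.28%.

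Libraries with the same number deviated together with a correlation of 0.081 (levels) and 0.0758 (shares). These correlations are weak, but they cannot decide whether libraries with the same number were handled together, and the labels do not say. With the replicate block, 0 genes passed in share; the adjusted p was 0.0138 for Acta1 and 0.0215 for Actg2.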
